A study of Mus musculus with 8 samples.

Results

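The 46 genes described here encode the machinery of programmed cell death outside the Bcl2 family, together with the p53 family and genes that respond to p53 or to cell stress. They comprise caspases, mitochondrial death factors, inhibitor of apoptosis proteins (IAPs), death receptors with their adaptors, and p53 relatives, regulators and targets. They were taken from a list of gene symbols, chosen with earlier results of these data known. The symbols were matched exactly to the array annotation, which gave a probe set for 43 of the 46, out of 19938 genes in all. Ripk1, Trp53 and Cdkn1a had no probe set with a single gene symbol and were not analysed here.

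Total RNA came from neocortical layers II to IV of 8 mouse pups at postnatal day 2, cut out by laser and hybridised to Affymetrix Mouse Gene 1.0 ST arrays, 1 array per pup. The 4 control pups were Bcl11a flox/+ and carried Emx1 IRESCre/+, and the 4 mutant pups were Bcl11a flox/flox with the same Cre allele. Both groups therefore carried Cre at Emx1, and controls had 1 floxed allele of Bcl11a, so the comparison is loss of both alleles against loss of 1. Emx1-driven Cre acts in the progenitors of cortical excitatory neurons and glia, while interneurons, microglia and vessels arise from other lineages. Values are log2 intensities; differences are mutant minus control, and a gene is said to have risen or fallen where limma's adjusted p over all genes was under 0.05.

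Bcl11a encodes a zinc finger transcription factor, and the series title places it with Bcl6 in a pathway that controls the developmental death of cortical projection neurons. Many cortical neurons die in the first postnatal days. In the intrinsic pathway cytochrome c leaves the mitochondria and, with Apaf1, activates the initiator caspase Casp9, which IAPs restrain; in the extrinsic pathway death receptors recruit Fadd and Casp8. The transcription factor p53 induces genes of cell cycle arrest, DNA repair and death, and is itself held down by Mdm2 and Mdm4. Caspases and death receptors are largely controlled after transcription, by cleavage and complex assembly, which RNA levels do not record.

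Bcl11a was lower in every mutant array, with a mean of 10.45 ± 0.13 in controls and 8.63 ± 0.21 in mutants (SD, n = 4; adjusted p = 4.90e-07), and Bcl6 fell from 7.88 ± 0.23 to 6.06 ± 0.21 (SD, n = 4; adjusted p = 1.65e-06). Array medians lay between 4.83 and 4.91, and control 1 had the lowest quality weight, 0.556. Upper-layer markers were present at high levels: Cux1 averaged 9.67 and Cux2 8.90 in the controls. Of the deep-layer list, Tbr1 (9.90), Ldb2 (9.33) and Ntsr1 (8.74) were also bright in the controls. The other deep-layer genes ranged there from 4.82 (Foxp2) to 7.29 (Bcl11b). The summed linear intensity of marker lists did not overlap between the genotypes for upper layers (7 of 9 listed genes measured, 5212 to 5569 in controls and 4031 to 4684 in mutants; 5 fell), deep layers (8 of 8, 1955 to 2753 and 3192 to 3869) and interneurons (12 of 12, 2027 to 2144 and 1523 to 1645). The single genes did not all move with the sums. Among the deep-layer genes Ldb2 rose (9.33 to 10.71), Ntsr1 fell (difference -0.90) and 6 did not pass. Ldb2 was the brightest of the 8 in the mutants, and bright genes weigh most in a linear sum. The deep-layer sums therefore do not show a shift of the list as a whole. Among the interneuron genes Npy (-1.63) and Dlx1 (-0.46) fell and 10 did not pass, Calb2 with a difference of 0.86. The sums overlapped for mural cells (6 of 6 genes), although their mean log2 level did not (6.06 to 6.23 in controls and 5.94 to 6.04 in mutants), all 6 differences were below 0 and Abcc9 fell (-0.32). They also overlapped for excitatory neurons (9 of 10), in which Snap25 (-0.82), Rbfox3 (-0.63) and Slc17a6 (-0.51) fell and Neurod6 rose (0.70). For microglia (248 to 265.9 and 240 to 266.0, 11 of 12 genes), endothelium (7 of 8), meninges (6 of 6), astroglia (7 of 7), the oligodendrocyte lineage (6 of 7), cycling cells (9 of 10) and blood (1 of 7) the sums overlapped and 0 genes passed limma's test. No marker was at 0, since every probe set has a background reading, and the part of these cell type differences in the results was not tested.

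Of the 43 genes, 3 rose in the mutant, 0 fell and 40 did not pass; 11 had an unadjusted p under 0.05, as did 14.0% of all genes. The 3 were Gadd45a, Trp53inp1 and Rrm2b, all from the group of p53 targets and damage response genes. They are 6.98% of the 43, against 4.15% of all 19938 genes called in either direction, 2.36% called higher and 1.79% called lower. Because the 43 were chosen with earlier results known, this share and those given later describe them and are no test of the group. The median log2 difference of the 43 was -0.0046, with 21 above and 22 below 0, and that of all genes was 0.017. Control and mutant arrays did not overlap for 8 of the 43, with 5 higher and 3 lower in the mutant, while 9.25% of all genes did not overlap, 5.46% higher and 3.79% lower. The median absolute difference was 0.0870 for the 43 and 0.0674 for all genes. Fewer cells of a type and less RNA per cell cannot be told apart in such tissue samples.

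**Figure D1:**
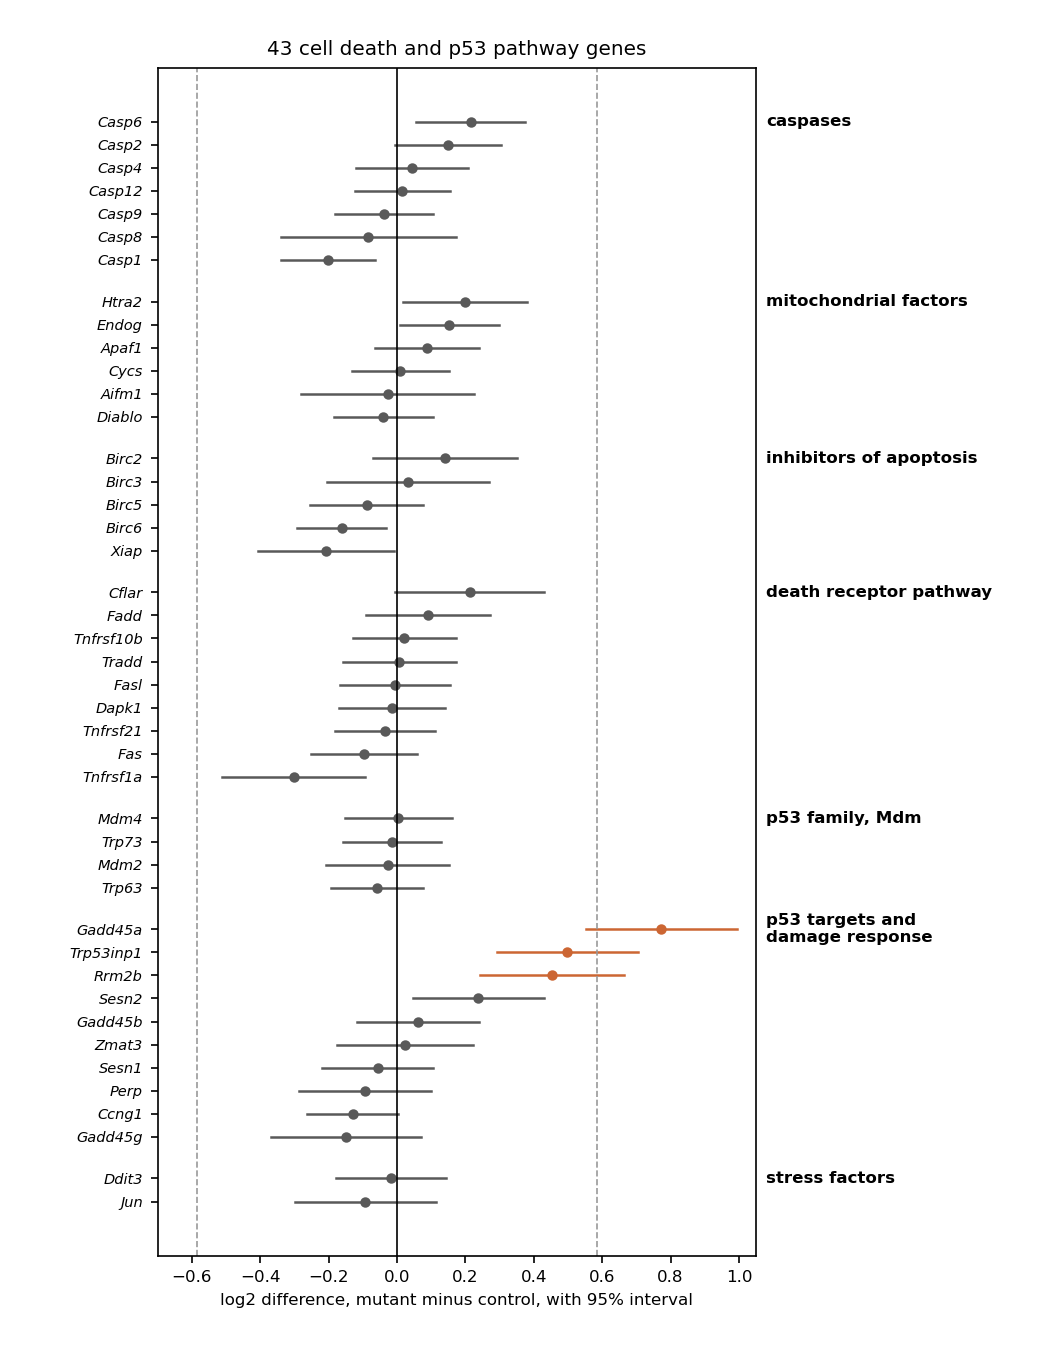
Log2 difference (mutant minus control, 4 arrays each) of the 43 genes with the 95% interval of the limma fit, grouped by role; orange marks an adjusted p under 0.05 and dashed lines mark a 1.5-fold change. Gadd45a, Trp53inp1 and Rrm2b stand to the right of 0, and the intervals of the 40 others all lie between the dashed lines.

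The intervals of the 40 genes that did not pass bound how much they could have moved. All 40 of these 95% intervals, taken gene by gene, lay within a 1.5-fold change in either direction, and 35 lay within a 1.3-fold change. The 5 whose interval reached beyond 1.3-fold were Htra2, Xiap, Cflar, Tnfrsf1a and Sesn2. Array intensities tend to understate fold changes of dim genes, and 6 of the 43 genes were dim. Their readings in both groups lay at or below 4.30, the 95th percentile of the means of 1015 olfactory receptor genes, which serve here as a reference for background. Those 6 were Casp1, Casp4, Casp12, Fas, Fasl and Tnfrsf10b, and for them the interval bounds the reading rather than the transcript. Of the 37 brighter genes 3 passed (8.11%), against 5.96% of the 13719 genes whose mean lay above that level, 3.37% called higher.

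The Gadd45 genes encode small proteins that bind cell cycle and stress kinases and are induced by damage; Gadd45a is a classical p53 target. The bases before their start sites are shown because 1 of these 3 relatives rose and the others did not pass. Each sequence is the 250 bases upstream of the RefSeq start in GRCm38.p6, on the strand of the gene, and capitals mark the motif matches described after it: Gadd45a lies on the minus strand at chr6:67037408-67037657, Gadd45b on the plus strand at chr10:80929841-80930090 and Gadd45g on the plus strand at chr13:51846425-51846674.
Gadd45a: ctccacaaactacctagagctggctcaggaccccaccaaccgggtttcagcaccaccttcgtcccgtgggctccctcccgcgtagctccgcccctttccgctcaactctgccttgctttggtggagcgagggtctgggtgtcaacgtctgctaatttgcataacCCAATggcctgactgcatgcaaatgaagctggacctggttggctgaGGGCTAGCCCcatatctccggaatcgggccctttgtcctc
Gadd45b: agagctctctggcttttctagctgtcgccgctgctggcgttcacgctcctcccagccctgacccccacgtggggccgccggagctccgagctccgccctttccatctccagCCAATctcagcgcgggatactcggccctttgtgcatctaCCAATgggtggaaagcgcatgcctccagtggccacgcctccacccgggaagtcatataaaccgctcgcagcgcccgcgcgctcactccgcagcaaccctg
Gadd45g: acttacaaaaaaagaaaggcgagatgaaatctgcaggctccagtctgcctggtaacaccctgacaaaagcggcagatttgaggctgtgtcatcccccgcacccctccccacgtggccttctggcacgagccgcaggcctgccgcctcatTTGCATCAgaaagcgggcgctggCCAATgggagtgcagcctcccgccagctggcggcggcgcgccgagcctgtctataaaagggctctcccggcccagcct

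A set of 6 motifs was searched on both strands of these windows: the p53 half-site consensus, TGACCA (bound by Bcl11a), TTCCTNGAA (bound by Bcl6), TGANTCA (AP-1), TGANGCAA (ATF4) and CCAAT (NF-Y). The Gadd45a window held a match to the p53 half-site, GGGCTAGCCC, 40 to 31 bases before the start, and CCAAT at 86 to 82 bases. The Gadd45b window held CCAAT at 139 to 135 and at 100 to 96 bases, and the Gadd45g window held CCAAT at 78 to 74 bases and TTGCATCA, the reverse complement form of the ATF4 motif, at 101 to 94 bases. No match in these 3 windows overlapped another. Of all 32851 windows, 7.13% held the p53 half-site, 33.8% CCAAT, 3.12% TGANGCAA, 6.75% TGANTCA, 11.4% TGACCA and 1.31% TTCCTNGAA.

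A window was found for 35 of the 43 genes, and the first listed was searched where a gene had several; Trp53inp1, Rrm2b, Htra2, Perp, Zmat3, Tradd, Trp63 and Tnfrsf10b had none. The p53 half-site occurred in 5 of the 35, those of Gadd45a, Fasl, Mdm2, Ccng1 and Birc5, of which Gadd45a alone passed the test. TGACCA occurred in 1, that of Diablo, TTCCTNGAA in 0, TGANTCA in 3, those of Mdm4, Ddit3 and Fas, TGANGCAA in 1, that of Gadd45g, and CCAAT in 17. A match describes letters in the sequence and is no measurement of binding.

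Gadd45a (probe set 10545130) rose 1.71-fold, the largest difference among the 43. Its 4 control values were 5.88, 6.13, 6.23 and 6.21, and its 4 mutant values were 6.93, 6.81, 7.12 and 6.67. The lowest mutant array lay 0.44 above the highest control array, and control 1 was the lowest of the controls. The log2 difference was 0.77 (SE 0.10; 95% interval 0.55 to 0.99; adjusted p = 5.28e-04), and an exact two-sided permutation test gave p = 0.0286, which is the minimum for 2 groups of this size. The size of this difference stood at percentile 99.2 of all genes.

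Its relatives did not pass. Gadd45b, whose product is known as a stress- and NF-kB-induced factor, averaged 4.65 ± 0.09 in controls and 4.71 ± 0.15 in mutants (SD, n = 4; difference 0.06, 95% interval -0.12 to 0.24). Gadd45g, which is transiently expressed in newborn neurons, averaged 5.32 ± 0.15 and 5.17 ± 0.20 (SD, n = 4; difference -0.15, 95% interval -0.37 to 0.07). The differences of Gadd45a, Gadd45b and Gadd45g were thus 0.77, 0.06 and -0.15, and whether they differ from each other was not tested, since the genes were set side by side after their values were seen.

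Trp53inp1 (probe set 10503259) encodes a stress-induced nuclear protein that promotes p53 activity and autophagy. Its control values were 6.98, 6.91, 7.03 and 6.75 and its mutant values 7.42, 7.39, 7.66 and 7.19, so each mutant array exceeded each control array. The rise was 1.41-fold (log2 difference 0.50, SE 0.10; 95% interval 0.29 to 0.70; adjusted p = 0.00811; exact permutation p = 0.0286). Mutant 3 had the highest value of both Trp53inp1 and Gadd45a, and mutant 4 the lowest of both. Trp53inp2, its relative and an autophagy factor, averaged 9.09 ± 0.09 in controls and 8.87 ± 0.11 in mutants without passing (SD, n = 4; difference -0.22; adjusted p = 0.168).

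Rrm2b (probe set 10428232) encodes the p53-inducible small subunit of ribonucleotide reductase, which supplies deoxynucleotides for DNA repair. Control values were 6.13, 5.68, 6.13 and 6.06 and mutant values 6.50, 6.51, 6.49 and 6.31. Control 2 lay well below the other controls and mutant 4 below the other mutants, yet the groups did not overlap. The rise was 1.37-fold (log2 difference 0.45, SE 0.10; 95% interval 0.24 to 0.66; adjusted p = 0.0168; exact permutation p = 0.0286). The call was lost without mutant 2 (adjusted p = 0.0628) or mutant 3 (adjusted p = 0.0548), and leaving out control 2 gave a difference of 0.35. With each gene's own variance and no moderation, Gadd45a, Trp53inp1 and Rrm2b all missed the threshold (adjusted p = 0.0575, 0.133 and 0.177).

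**Figure D2:**
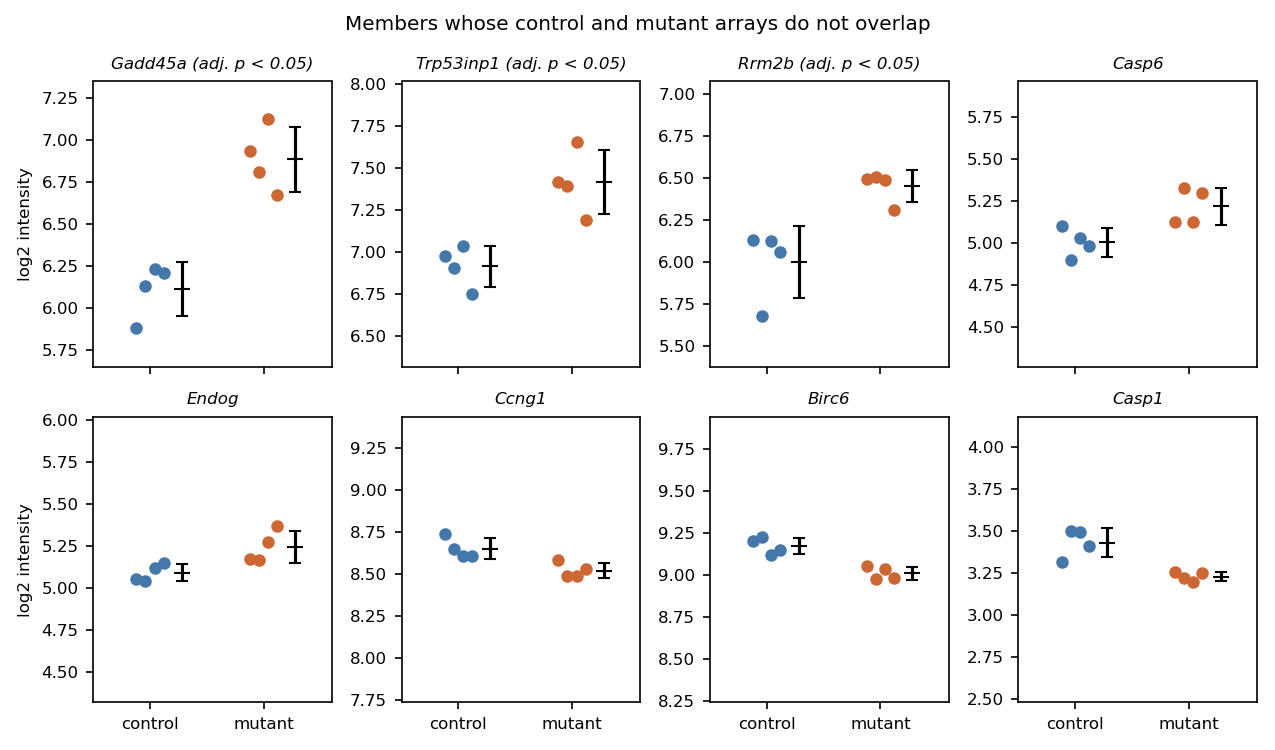
Log2 intensity on each array (points) with the group mean and SD (black) for the 8 genes whose control and mutant arrays did not overlap; every panel spans the same height in log2 units. Gadd45a, Trp53inp1 and Rrm2b show the wide separations, while Casp6, Endog, Ccng1, Birc6 and Casp1 separate by 0.22 or less between the means.

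The other 7 measured members of the group of p53 targets and damage response genes did not pass. Sesn2, a stress-induced inhibitor of mTORC1 signalling, had control values of 5.38, 5.40, 5.54 and 5.53 and mutant values of 5.82, 5.45, 5.85 and 5.68. Mutant 2 fell within the control range and the other 3 mutants lay above it (difference 0.24, 95% interval 0.05 to 0.43; adjusted p = 0.208; 0.0483 without mutant 2). Its relative Sesn1 had a difference of -0.06. Ccng1, which encodes cyclin G1 and is among the most p53-responsive genes of the mouse, had control values of 8.74, 8.65, 8.61 and 8.61 and mutant values of 8.58, 8.49, 8.49 and 8.53. Every mutant value of Ccng1 lay below every control value, by a mean of 0.13 (adjusted p = 0.379).

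Perp, a membrane protein of p53-dependent death, had a difference of -0.09 (95% interval -0.29 to 0.10), and Zmat3, an RNA-binding protein induced by p53, one of 0.02 (95% interval -0.17 to 0.22). Of the 10 measured genes in this group, 3 rose, 0 fell and 7 did not pass. Over all genes 2.36% were called higher and 1.79% lower. An unadjusted p under 0.05 by limma was found for 4 of the 10, against 14.0% of all genes. The p53 family and its regulators were close to 0: Trp63 had a difference of -0.06, Trp73 -0.01, Mdm2 -0.03 and Mdm4 0.0046, with adjusted p between 0.784 and 0.990. Mdm2, the ubiquitin ligase of p53 and itself a p53 target, averaged 7.97 ± 0.06 in controls and 7.94 ± 0.17 in mutants (SD, n = 4; 95% interval of the difference -0.21 to 0.15). Among the stress-activated transcription factors, Ddit3 (CHOP, of the unfolded protein response) had a difference of -0.02 and Jun, the target of JNK in neuronal death, one of -0.09, and neither passed (adjusted p = 0.962 and 0.770).

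None of the 7 caspase genes passed, though 2 had an unadjusted p under 0.05 and non-overlapping groups, against 14.0% and 9.25% of all genes. Casp6, an effector caspase that cleaves nuclear lamins and acts in axon pruning, had control values of 5.10, 4.90, 5.03 and 4.98 and mutant values of 5.12, 5.33, 5.12 and 5.30. The lowest mutant value stood just above the highest control value, and the mean difference was 0.22 (95% interval 0.06 to 0.37; adjusted p = 0.157). Casp1, the inflammatory caspase that matures interleukin-1, read 3.31, 3.50, 3.50 and 3.41 in controls and 3.25, 3.22, 3.19 and 3.25 in mutants. All of these readings are within the olfactory receptor background range (difference -0.20; adjusted p = 0.122).

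Casp2, a nuclear initiator caspase, was the brightest of the caspases at 7.41 ± 0.06 in controls and 7.56 ± 0.12 in mutants (SD, n = 4; difference 0.15; adjusted p = 0.383). Casp9, the initiator of the intrinsic pathway, differed by -0.04 (95% interval -0.18 to 0.11), and Casp8, the initiator of the extrinsic pathway, by -0.08 (95% interval -0.34 to 0.17), with mutant arrays from 4.67 to 5.31. The inflammatory caspase genes Casp4 and Casp12 differed by 0.04 and 0.02 at background-range levels.

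The mitochondrial factors gave small differences, with 0 of 6 passing limma's test and adjusted p from 0.289 to 0.975. For 2 of the 6 the unadjusted p was under 0.05. Over all genes, 4.15% passed and 14.0% had such a p. Cycs, cytochrome c, was the brightest of the 43 genes with 10.05 ± 0.07 in controls and 10.06 ± 0.08 in mutants (SD, n = 4; 95% interval of the difference -0.13 to 0.15). Its other 2 probe sets differed by -0.05 and -0.08, and processed pseudogenes of Cycs could contribute to such readings. Apaf1, the scaffold of the apoptosome, differed by 0.09 (95% interval -0.06 to 0.24).

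Endog, a mitochondrial nuclease, read 5.05, 5.04, 5.12 and 5.15 in controls and 5.17, 5.17, 5.27 and 5.37 in mutants. The groups of Endog did not overlap, but the nearest arrays were 0.016 apart and the test was not passed (difference 0.15; adjusted p = 0.323). Htra2, a protease that relieves inhibition by IAPs, differed by 0.20 (adjusted p = 0.289), with 1 mutant array inside the control range. Diablo, the other IAP antagonist, and the oxidoreductase Aifm1 differed by -0.04 and -0.03.

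Of the 5 IAP genes 0 passed limma's test and 2 had an unadjusted p under 0.05, where 4.15% and 14.0% of all genes did. Birc6, a giant ubiquitin-conjugating enzyme that restrains caspases, had control values of 9.20, 9.22, 9.12 and 9.15 and mutant values of 9.05, 8.98, 9.04 and 8.98. All mutant arrays were lower than all controls, with a mean difference of -0.16 (95% interval -0.29 to -0.03; adjusted p = 0.207). Xiap, the IAP that binds caspases directly, averaged 7.80 ± 0.09 in controls and 7.60 ± 0.19 in mutants (SD, n = 4; difference -0.21, 95% interval -0.41 to -0.01; adjusted p = 0.331), and mutants 1 and 3 lay within the control range. The ubiquitin ligase genes Birc2 and Birc3 differed by 0.14 and 0.03. Birc5, survivin, is made mainly by dividing cells and differed by -0.09, and the summed cycling cell markers ranged from 413.9 to 495.7 in controls and 431.8 to 493.1 in mutants.

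In the death receptor group 0 of 9 genes passed limma's test and 1 had an unadjusted p under 0.05, against 4.15% and 14.0% of all genes. Tnfrsf1a, the main receptor of tumour necrosis factor, had the largest difference of the 40 genes that did not pass. It read 5.68, 5.45, 5.39 and 5.26 in controls and 5.06, 5.28, 5.26 and 4.97 in mutants, so that control 4 overlapped the upper mutants (difference -0.30, 95% interval -0.51 to -0.09; adjusted p = 0.128). Cflar, an inactive relative of Casp8 that blocks it, read 4.67, 4.76, 4.84 and 4.64 in controls and 5.18, 4.71, 5.09 and 4.78 in mutants. Mutants 1 and 3 stood above the controls for Cflar while mutants 2 and 4 did not (difference 0.21; adjusted p = 0.374), and its other 2 probe sets differed by 0.27 and 0.14, with adjusted p of 0.0880 and 0.535 over all 21789 probe sets.

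The brightest genes of this group were Dapk1, a calmodulin-dependent death kinase, and Tnfrsf21, the receptor DR6. Dapk1 averaged 9.67 ± 0.10 in controls and 9.66 ± 0.08 in mutants, and Tnfrsf21 averaged 8.73 ± 0.10 and 8.70 ± 0.06 (SD, n = 4). Their 95% intervals ran from -0.17 to 0.14 and from -0.18 to 0.11. The adaptor genes Fadd and Tradd differed by 0.09 and 0.01, and Fas, its ligand gene Fasl and the TRAIL receptor gene Tnfrsf10b, all in the background range, by -0.10, -0.0046 and 0.02.

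**Figure D3:**
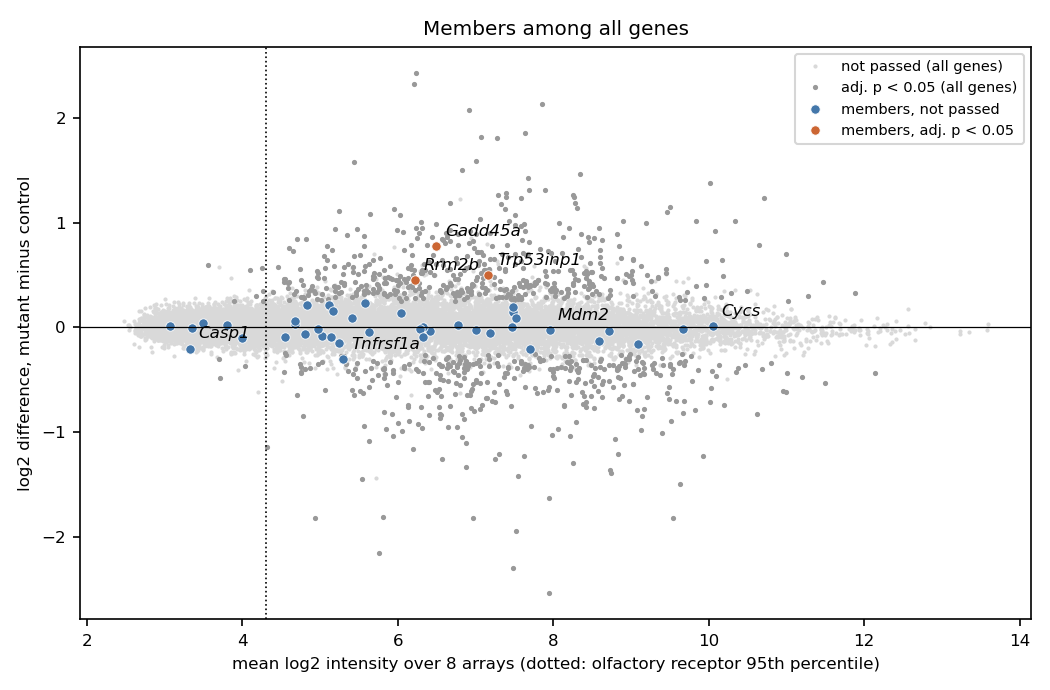
Log2 difference (mutant minus control) against mean log2 intensity over the 8 arrays for all 19938 genes (grey) and the 43 genes (coloured); the dotted line marks 4.30. Orange points, Gadd45a, Trp53inp1 and Rrm2b, lie in the band of called genes, and blue points, the other 40, lie in the band of genes that did not pass.

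Other genes of the same pathways were taken from 5 lists written with earlier results of these data known: 140 measured genes of 157 listed, of which 5 rose, 0 fell and 135 did not pass (3.57% called, against 4.15% of all genes). Their median log2 difference was 0.03, and 24 of the 140 had an unadjusted p under 0.05 by limma, against 14.0% of all genes. Under apoptotic execution 23 other genes were listed and measured, under death receptor and NF-kB signalling 30 and under p53 regulators 25. In each list 0 passed, and 1, 3 and 1 had an unadjusted p under 0.05 by limma. Faim of the death receptor list and Rps27l of the p53 regulator list came nearest (adjusted p = 0.0673 and 0.0695). Both passed higher when the dimmest 50% of genes were left out (adjusted p = 0.0437 and 0.0464). Rps27l also passed without mutant 3 (adjusted p = 0.00936). The medians of these 3 lists were -0.01, 0.0015 and 0.02.

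Of 34 further genes listed as p53 targets, 3 rose, 0 fell and 31 did not pass, with a median of 0.07. By limma 13 had an unadjusted p under 0.05, beside the 14.0% of all genes with such a p and the 4.15% called. Of these 34 differences 22 were above and 12 below 0. Sulf2, an extracellular heparan sulfate sulfatase, rose from 7.91 ± 0.12 to 8.80 ± 0.08 (SD, n = 4; adjusted p = 1.41e-05), and its rise was known when the list was written. Igfbp3, a secreted binding protein of insulin-like growth factors, rose by 0.42 (adjusted p = 0.0151; 0.0519 without control 3 and 0.0618 without mutant 2). Ano3, an anoctamin, was kept as listed, although its response to p53 was not checked. It rose by 0.34 (adjusted p = 0.0313) from a control mean of 4.09 within the background range. That call held when control 2 or mutant 3 was left out and ended when any other array was (adjusted p up to 0.104), and it also ended when its probe sets were averaged (adjusted p = 0.169). Bbc3, a BH3-only death gene induced by p53, had a difference of 0.19 and did not pass (adjusted p = 0.290). Pmaip1 of the same list had a difference of 0.02 and did not pass either (adjusted p = 0.964).

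Of 29 stress and JNK pathway genes, Map3k5 and Sesn3 rose, 0 fell and 27 did not pass, with a median of 0.04. By limma 6 of the 29 had an unadjusted p under 0.05. Over all genes, 14.0% had such a p and 4.15% were called. Map3k5 encodes ASK1, a kinase upstream of JNK and p38 in stress-induced death. It read 5.82, 5.91, 6.39 and 6.57 in controls and 6.93, 7.21, 7.10 and 7.07 in mutants, so the controls were widely spread and the mutants lay together above them (1.87-fold; difference 0.90, 95% interval 0.60 to 1.21; adjusted p = 0.00200). Sesn3, the sestrin known as a target of FoxO factors, read 7.56, 7.76, 7.95 and 7.90 in controls and 8.23, 8.35, 8.47 and 8.28 in mutants, with no overlap (difference 0.54, 95% interval 0.35 to 0.73; adjusted p = 0.00266).

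The 3 sestrin genes thus had differences of 0.54 (Sesn3), 0.24 (Sesn2) and -0.06 (Sesn1), given as a description. Without mutant 2 the other pathway genes that rose numbered 3, namely Map3k5, Sesn3 and Sulf2. Without variance moderation Sulf2 alone passed among them (adjusted p = 0.0108).

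**Figure D4:**
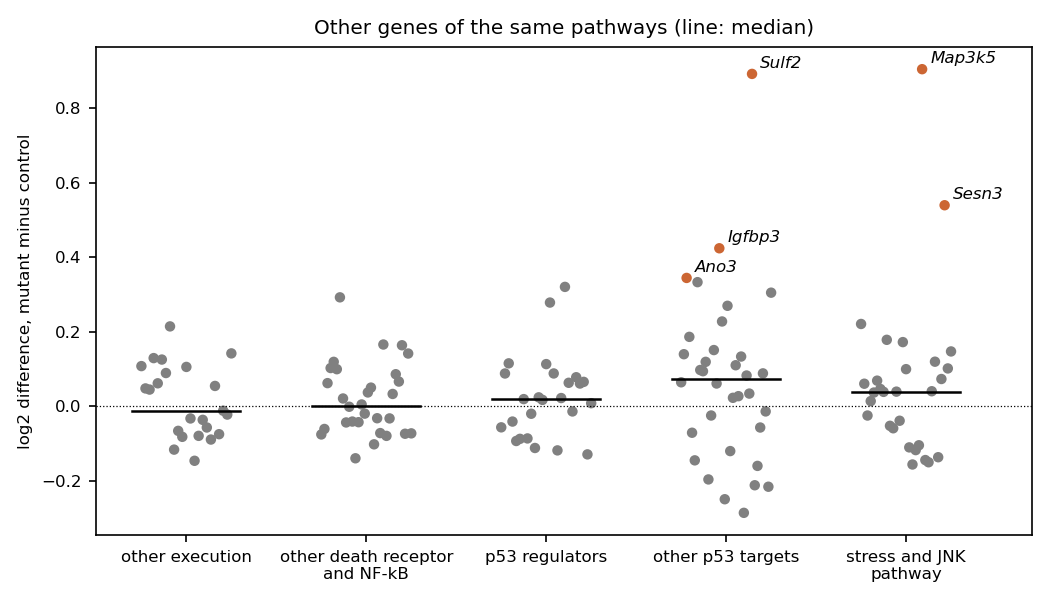
Log2 difference (mutant minus control) of each measured gene in 5 further lists, with the list median as a line and genes with an adjusted p under 0.05 in orange. The 5 named genes stand above 0 in the lists headed p53 targets and stress and JNK pathway. The medians of all 5 lists lie between -0.01 and 0.07.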

How the data were processed

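The authors deposited 1 value table of 35556 probe sets for 8 arrays, taken as log2 intensities normalized between arrays; per the labels BRB-ArrayTools was used, and its settings and the base of the log are not stated in the sources at hand. Of the probe sets 21789 had 1 gene symbol, 1621 several and 12146 none in the platform annotation. Probe sets with 1 symbol were kept, the brightest for each gene, which gave 19938 genes with no filter on dim genes. Mutant was compared with control by limma 3.58.1 in R 4.3.3 (genotype alone, 6.91 prior degrees of freedom, two-sided, Benjamini-Hochberg over all genes), beside exact permutation tests over the 70 splits. The number of arrays limits precision; the median SE was 0.0766. On simulated data for this comparison and all 19938 genes, 57 of 67 genes changed by 0.5, 65 of 67 by 1 and 66 of 66 by 2 were recovered, and 3.59% of calls were false. Members, lists and the naming rule were chosen with earlier results of these data known. By that rule all members are accounted for, with values by array for those that passed or did not overlap. It also covers further members by size within each role and the brightest of it, and up to 4 passing genes of each pathway list. Faim, Rps27l, Bbc3, Pmaip1, Trp53inp2, Sesn1, Trp73 and other relatives were named after their values had been seen. Upstream sequences are RefSeq's (GRCm38.p6). Alternatives changed normalization, dim filters, probe set choice, weights, variance estimates, thresholds, the replicate block and the arrays used; those for the other pathway genes were chosen after seeing the data. The labels say pups were separate but give no litters.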

Additional observations from a re-analysis of the deposited data

Results flagged for a closer look

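In 100 groups of 4 arrays tested for an isolated array (the measured members, Bcl11a, Bcl6 and the 5 other pathway genes that rose), 2 were found, where chance gives about 1 in 20. Both concern Rrm2b, the ribonucleotide reductase subunit gene. Control 2 read 5.68 against 6.06 to 6.13 in the other controls, and mutant 4 read 6.31 against 6.49 to 6.51 in the other mutants. Without control 2 the log2 difference of Rrm2b was 0.35 and without mutant 4 it was 0.50, and it passed the test in both cases.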

How the results depend on the processing

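The 3 members that rose kept that call with quantile normalization, equal array medians, either dim filter, the mean of probe sets, array weights, and trend and robust variances. Without variance moderation 0 members and 249 genes passed, and 1 other pathway gene did; at an adjusted p under 0.01, 447 genes and 3 other pathway genes passed, and at 0.10, 8 pathway genes rose and 1 (Ptp4a3) fell. Leaving out single arrays gave 584 to 814 genes, 2 to 3 members higher and 0 lower, and 3 to 6 pathway genes higher and 0 to 1 lower (Ptp4a3, without mutant 1); without mutant 2 the 3 members were Gadd45a, Trp53inp1 and Sesn2. Replicate numbers were not treated as pairs: deviations of same-numbered arrays correlated at 0.0558 to 0.295, and 3 of 4 controls matched their own number best. With the replicate block 987 genes and 3 members passed, and 5 pathway genes rose and 1 (Ptp4a3) fell; Ptp4a3 also fell with equal array medians (1 gene). The cause of these shifts was not tested. Of the 40 members that did not pass, 23 kept their sign in all alternatives. Signs turned for Casp12 (-0.0048) and Cycs (-0.011) with equal medians, Cycs with the mean of probe sets (-0.039) and array weights (-0.011), Tradd with quantile normalization (-0.016), equal medians (-0.014) and weights (-0.013), Mdm4 with quantile normalization (-0.017) and equal medians (-0.016), and with weights Dapk1 (0.0049) and Zmat3 (-0.021). Leaving out single arrays spanned 0 for Casp4 (-0.0047 to 0.10), Casp8 (-0.19 to 0.021), Casp12 (-0.022 to 0.041), Cycs (-0.020 to 0.035), Aifm1 (-0.13 to 0.092), Birc3 (-0.022 to 0.14), Fasl (-0.053 to 0.034), Tradd (-0.043 to 0.046), Tnfrsf10b (-0.022 to 0.060), Tnfrsf21 (-0.068 to 0.0031), Dapk1 (-0.056 to 0.019), Trp73 (-0.057 to 0.012), Mdm2 (-0.068 to 0.057), Mdm4 (-0.038 to 0.053), Gadd45b (-0.0043 to 0.12), Zmat3 (-0.046 to 0.083) and Ddit3 (-0.062 to 0.017). Readings near background limit what can be said of the 6 dim members.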
